A study of Neurospora crassa with 14 samples.

Results

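Messenger RNA of 7 genes that build constitutive heterochromatin and methylate DNA in the filamentous fungus Neurospora crassa was followed across strains with deletions of RPD3 complex genes and across treatment with a deacetylase inhibitor. The genes were chosen by name and read by their identifiers: dim-2 (NCU02247), dim-5 (NCU04402), hpo (NCU04017), dim-7 (NCU04152), dim-8 (NCU06605), dim-9 (NCU01656) and cul4 (NCU00272). They are 7 of 9552 genes listed in any table and were found in all 5 tables, each time with an adjusted p, so none was lost to a filter on low values. Mycelium from 5 ml cultures, kept shaking at 32 °C for 16 h in standard minimal medium with 1.5% sucrose, gave 14 libraries in 7 groups of 2. The deletion set held wild type and strains labelled as lacking sds3 (NCU01599), rlp1 (NCU09007), rlp2 (NCU02898) or eaf-3 (NCU06788), and the samples of each of its groups were 2 different strains. The treated set was a single strain, N6279, which is his-3 and carries the promoter fusions pNCU05173::hph and pNCU07152::nat-1, supplemented with histidine and grown with 5 ul or with 0 ul of Trichostatin A (TSA), an inhibitor of class I and II histone deacetylases, in 2 biological replicates each. The labels used here give TSA as a volume without a concentration, and name no vehicle for the 0 ul group. These fusions sit in both TSA groups and in no group of the deletion set, so the drug comparison also differs from the deletion comparisons in strain background.

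In Neurospora, constitutive heterochromatin lies on AT-rich, repeat-derived DNA, where lysine 9 of histone H3 is trimethylated and cytosines are methylated. The methyltransferase DIM-5 sets the histone mark as part of the DCDC complex, which is built around the cullin CUL4 and the DDB1 homologue DIM-8, with DIM-9 as a WD40 substrate-recognition subunit and DIM-7 as the protein that brings in DIM-5. The chromodomain protein HP1, encoded by hpo, binds the mark and recruits the DNA methyltransferase DIM-2, which is responsible for all known DNA methylation in vegetative cells. Trichostatin A is known in this fungus for reducing DNA methylation at some regions, and deacetylation of histones is tied to heterochromatin through the HCHC complex, which holds HP1 and the deacetylase HDA-1. The comparisons below ask whether the messenger RNAs of this machinery change when RPD3 complex genes are deleted or deacetylases are inhibited.

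Each comparison has a table of its own, and every fold change, p-value and mean below was taken from the authors' deposited table. The value after ± is a standard error, derived here from the deposited p and fold change, and intervals are normal 95% intervals computed from it. The tables used here hold no value per library, so the spread between the 2 libraries of a group, their depth and any overlap of groups could not be read. The words rose and fell are kept for genes with a deposited adjusted p under 0.05. In its own comparison the deleted gene was at 58.9% of wild type for sds3, 49.0% for rlp1, 12.98% for rlp2 and 0.202% for eaf-3, by the fold changes of the authors' deposited table. The sds3 and rlp1 comparisons thus rest more on the labels of the strains. Of 8 conidiation markers 6 rose for sds3, 8 for rlp1, 4 for rlp2, 3 for eaf-3 and 1 for TSA, and none fell. Markers that did not pass included con-13 at -0.38 for rlp2, eas at -0.81 for eaf-3 and fl at -0.60 for TSA. The summed implied level of the 8 conidiation markers was 24629 in wild type and 29472 to 258582 in the deletion groups. This sum rests mostly on eas and ccg-13, whose means were 83554 and 17995 while the other 6 lay between 14.3 and 5605, so it does not describe all 8 markers. None of the 8 had a mean of 0 (the lowest, con-13, was at 14.3), and more conidial tissue cannot be told apart from more RNA per cell. Of 4 markers of sexual tissue, 1 rose and 1 fell for sds3, 2 rose for rlp1 and for rlp2, and 1 rose for eaf-3 and for TSA. For sds3 app fell by 4.23 and pre-1 rose by 1.60, and ccg-4 was at -5.49 ± 2.19 for rlp1 (adjusted p = 0.0517). The summed implied level of the 4 was 306 in wild type and 127 to 1788 in the deletion groups. Their means ran from 49.1 for pre-1 to 491 for app, so the sum does not describe all 4. Of all tested genes 34.6%, 23.2%, 11.01%, 31.7% and 8.77% were called for sds3, rlp1, rlp2, eaf-3 and TSA. The part of these markers in the results below was not tested.

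Little of this machinery passed the test. Of 35 pairs of a gene and a comparison, 1 passed the test, the rise of dim-5 in the sds3 deletion. None of the 35 met the authors' own category, which also asks for an absolute log2 fold change over 2. In the sds3 comparison 1 of 7 members was higher and none lower, where 34.6% of all tested genes were called (18.96% higher, 15.7% lower). None of the 7 passed in the rlp1, rlp2, eaf-3 or TSA tables, where 23.2%, 11.01%, 31.7% and 8.77% of all tested genes were called by the deposited adjusted p. At an unadjusted p under 0.05 the count was 1 for sds3 (40.7% of all genes), 2 for eaf-3 (39.6%) and 0 for rlp1 (33.3%), rlp2 (20.6%) and TSA (18.6%). Among the 4007 genes whose mean lay within the range of the members, 38.2%, 25.8%, 12.6% and 28.2% were called for sds3, rlp1, rlp2 and eaf-3. With 7 genes these counts describe the members and were not tested against the rest of the genome.

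**Figure D1:**
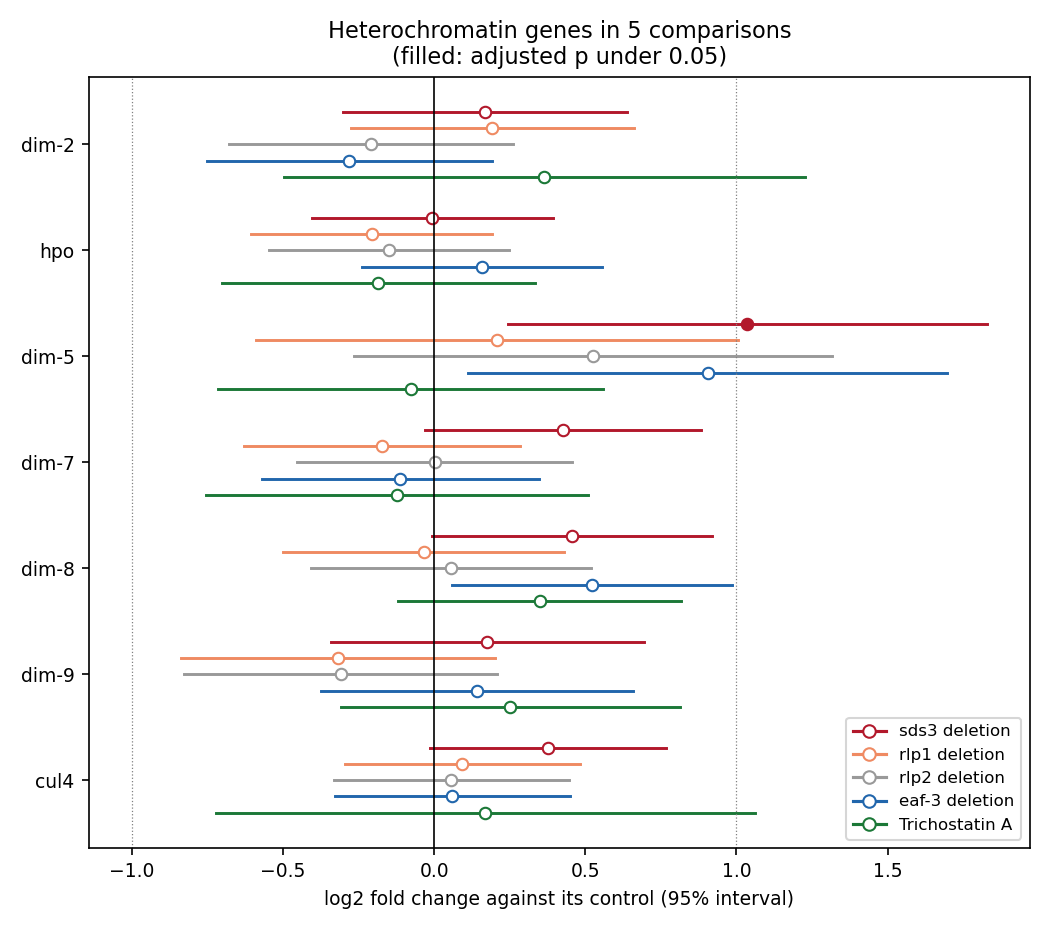
Log2 fold change of each member (rows) in the 5 comparisons (colours), with normal 95% intervals as horizontal lines and filled points where the deposited adjusted p was under 0.05. The filled point is dim-5 in the sds3 deletion, at 1.04, and the dotted lines mark 1 log2 unit to either side of 0.

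The histone H3 lysine 9 methyltransferase gene dim-5 had the largest change of the 7. In the authors' deposited table for sds3 it rose by 1.04 ± 0.40 on the log2 scale (adjusted p = 0.0327), to 205% of the wild type level with an interval from 118% to 355%. The next value was that of the eaf-3 deletion, 0.90 ± 0.40 or 187% of wild type (108% to 324%), which did not pass (unadjusted p = 0.025, adjusted p = 0.0714 in the authors' deposited table). In the rlp2 table dim-5 stood at 0.53 ± 0.40 (adjusted p = 0.473) and in the rlp1 table at 0.21 ± 0.41 (adjusted p = 0.755), both from the authors' deposited table. All 4 deletion values of dim-5 thus lay above 0, but the 4 comparisons share their wild type libraries, so these values are not independent of each other. Under TSA the gene was at -0.08 ± 0.32 in the authors' deposited table (adjusted p = 0.937), or 94.8% of the untreated level (60.9% to 147%). The interval of the TSA value ends at 0.56 and so leaves out a doubling.

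The rise of dim-5 was close to the limit of what the table could call. At its standard error a log2 fold change of 0.96 was the smallest that would have passed in the sds3 comparison, and 0.97 in the eaf-3 comparison, where the observed value fell short by a small margin. Its standard error in the sds3 table was larger than that of 73.4% of the 1070 genes with a mean within 1.5 times its own, whose median was 0.33. The standard error of dim-5 was 0.40 to 0.41 across the deletion tables. It is an error of the authors' fit and not a spread read between libraries. In the TSA table its standard error was larger than that of only 15.8% of such genes. Among all genes the sds3 value of dim-5 stood at percentile 81.3.

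**Figure D2:**
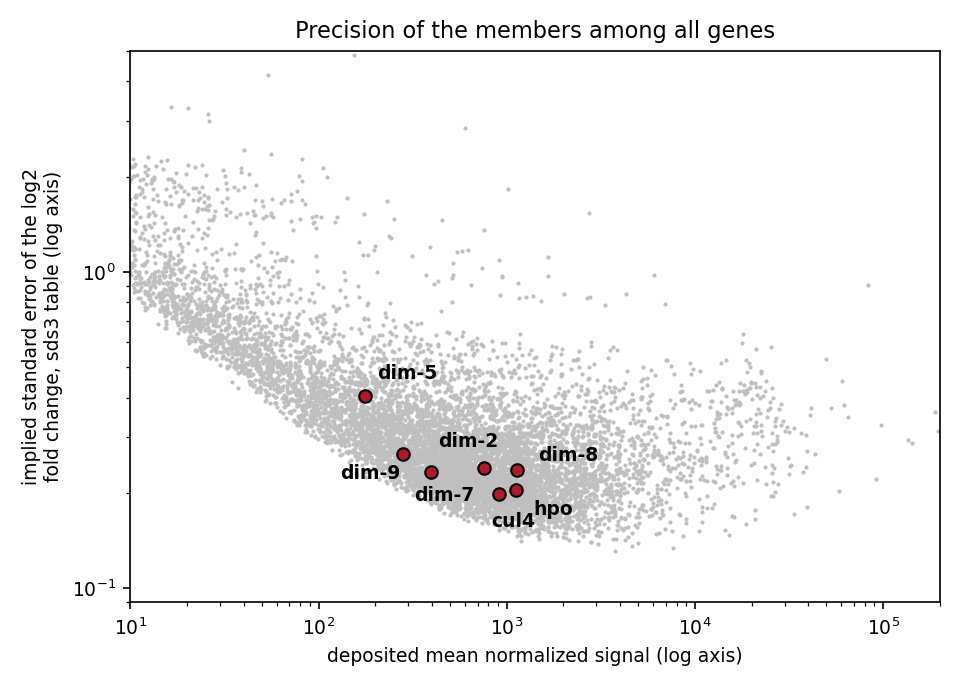
Implied standard error of the log2 fold change in the sds3 comparison (vertical, log axis) against the deposited mean normalized signal (horizontal, log axis, drawn from 10 upward), for all genes in grey and the members in red. The member with the lowest mean, dim-5 at 177, has the largest standard error of the 7, 0.40, and the others lie between 0.20 and 0.26.

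The partners of DIM-5 in the complex stood at smaller values, none past the test. In the authors' deposited table for sds3 the DDB1 homologue gene dim-8 was at 0.46 ± 0.24 (adjusted p = 0.126), the adaptor gene dim-7 at 0.43 ± 0.23 (adjusted p = 0.147), the cullin gene cul4 at 0.38 ± 0.20 (adjusted p = 0.132) and the WD40 subunit gene dim-9 at 0.18 ± 0.26 (adjusted p = 0.652). All 5 genes of the complex thus had values above 0 in this strain, with a median of 0.43 beside 0.07 for all genes of the table. Above 0 in the other tables were 4 of the 5 for eaf-3 (median 0.14), 4 for rlp2 (median 0.06), 2 for rlp1 (median -0.03) and 3 for TSA (median 0.17). The medians of all genes were 0.08, 0, 0.00 and -0.10 in the same order, and relative to them the counts were 3 for eaf-3, where cul4 turns below 0, and 4 for TSA, where dim-5 turns above 0, with no change for rlp2 and rlp1.

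In the eaf-3 deletion dim-8 had the highest value of the complex after dim-5. The gene for the DDB1 homologue, dim-8, stood at 0.52 ± 0.24 in the authors' deposited table for eaf-3, or 144% of wild type (104% to 198%), with an unadjusted p of 0.0273 and an adjusted p of 0.0765. The other core gene, cul4, was at 0.06 ± 0.20 there (79.6% to 137% of wild type), and dim-7 was at -0.11 ± 0.23 in the authors' deposited table. For dim-8 the rlp1 and rlp2 values were -0.03 ± 0.24 and 0.06 ± 0.24, and that for TSA was 0.35 ± 0.24 (adjusted p = 0.447). In the authors' deposited table the substrate-recognition gene dim-9 was lowest for rlp1 and rlp2, at -0.32 ± 0.27 and -0.31 ± 0.26 (adjusted p = 0.403 and 0.532), and stood at 0.14 ± 0.26 for eaf-3 and 0.25 ± 0.29 for TSA. The adaptor gene dim-7 was at -0.17 ± 0.23 for rlp1, 0.00 ± 0.23 for rlp2 and -0.12 ± 0.32 for TSA. For cul4 the remaining values were 0.09 ± 0.20 for rlp1, 0.06 ± 0.20 for rlp2 and 0.17 ± 0.45 for TSA. Per the reference annotation dim-7 overlaps its neighbour NCU04151, and the strand setting of the counting is not given in the sources used here, so reads of dim-7 and this gene may not be separate.

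The gene for HP1, which reads the histone mark, stayed closest to its control, with no absolute log2 fold change above 0.21. In the authors' deposited table hpo was at -0.01 ± 0.20 for sds3, -0.21 ± 0.20 for rlp1, -0.15 ± 0.20 for rlp2, 0.16 ± 0.20 for eaf-3 and -0.18 ± 0.26 for TSA, with adjusted p-values from 0.489 to 0.992. Its deletion values spanned 0.37 on the log2 scale. The 5 intervals together ran from -0.70 to 0.56, so that a change of 1 log2 unit lay outside each of them. At these standard errors an observed value of about 0.5 in the deletion tables (0.48 for sds3, 0.56 for rlp2) would have been called.

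The DNA methyltransferase gene dim-2 did not pass in any table either. In the authors' deposited table its values were 0.17 ± 0.24 for sds3, 0.19 ± 0.24 for rlp1, -0.21 ± 0.24 for rlp2, -0.28 ± 0.24 for eaf-3 and 0.37 ± 0.44 for TSA, with adjusted p-values from 0.391 to 0.731. For sds3, rlp1, rlp2 and eaf-3 the intervals correspond to 81.1% to 156%, 82.6% to 158%, 62.5% to 120% and 59.4% to 114% of wild type. Under TSA the interval was wider, from 70.9% to 234% of the untreated level, and does not leave out a doubling. The standard error of dim-2 in the TSA table was larger than that of 71.4% of genes of like mean.

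Taking precision into account, 29 of the 35 intervals lay within 1 log2 unit of 0 on both sides, and 28 of the 30 that do not belong to dim-5. The exceptions besides dim-5 were dim-2 and cul4 under TSA. The share of all genes with so narrow and central an interval was 36.0% for sds3, 41.6% for rlp1, 49.6% for rlp2, 41.3% for eaf-3 and 28.4% for TSA, against 6, 6, 6, 6 and 5 of 7 members. All genes include low ones with far wider errors, such as NCU00009 with a mean of 0.446 and a standard error of 4.89 for sds3. The share among genes of like mean was not computed, so this contrast does not set like beside like. For the 6 members other than dim-5 the smallest observed value the deletion tables could have called ran from 0.47 to 0.73 on the log2 scale. In the TSA table it ran from 0.68 to 1.296 over all 7, so smaller observed values could not pass. These are limits for the observed value and not for a true change.

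**Figure D3:**
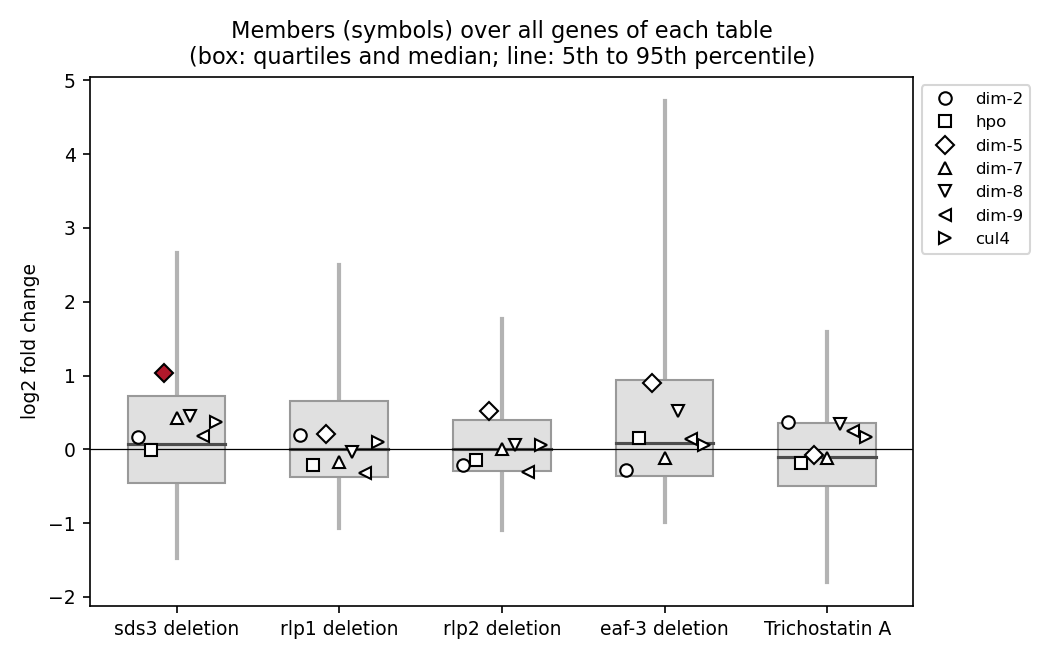
Log2 fold change of the 7 members (symbols) in each comparison over the distribution of all genes of that table (box from the lower to the upper quartile with the median, line from the 5th to the 95th percentile). Of the 35 symbols 31 lie inside the box, and those outside are dim-5 for sds3 and rlp2, dim-9 for rlp2 and dim-2 for TSA.

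The median absolute log2 fold change of the members was smaller than that of all genes in each of the 5 tables: 0.38 against 0.58 for sds3, 0.19 against 0.48 for rlp1, 0.15 against 0.34 for rlp2, 0.16 against 0.53 for eaf-3 and 0.18 against 0.44 for TSA. These medians are descriptions of the authors' deposited table values without a test. The medians were not matched for expression level, and its part in the contrast was not tested. The means of the members in the deletion tables ran from 177 for dim-5 to 1135 for dim-8, around a median of 401 over all genes.

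Levels per length set the members in order. A wild type level was implied from the deposited mean and the 4 fold changes, as if the mean covered all 10 libraries of the deletion set with equal weight, which the files do not state, and was divided by the gene's span, introns included, in the reference annotation. On this scale, in normalized signal per kb, hpo was the most abundant in wild type at 484, followed by dim-8 at 242 and cul4 at 233, then dim-2 at 135, dim-7 at 104, dim-5 at 69.8 and dim-9 at 68.5. The core genes dim-8 and cul4 lay close together, and so did dim-5 and dim-9, the genes with the lowest levels. Over the 5 groups of the deletion set the implied level of dim-5 ran from 69.8 per kb in wild type to 143 in the sds3 deletion, a 2.05-fold range, and its highest value was above the wild type levels of dim-7 and dim-2. The ranges of the other members were 1.29-fold for hpo, 1.299-fold for cul4, 1.39-fold for dim-2, 1.41-fold for dim-9, 1.47-fold for dim-8 and 1.52-fold for dim-7. Without values per library, neighbours in this order could not be tested against their spread.

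**Figure D4:**
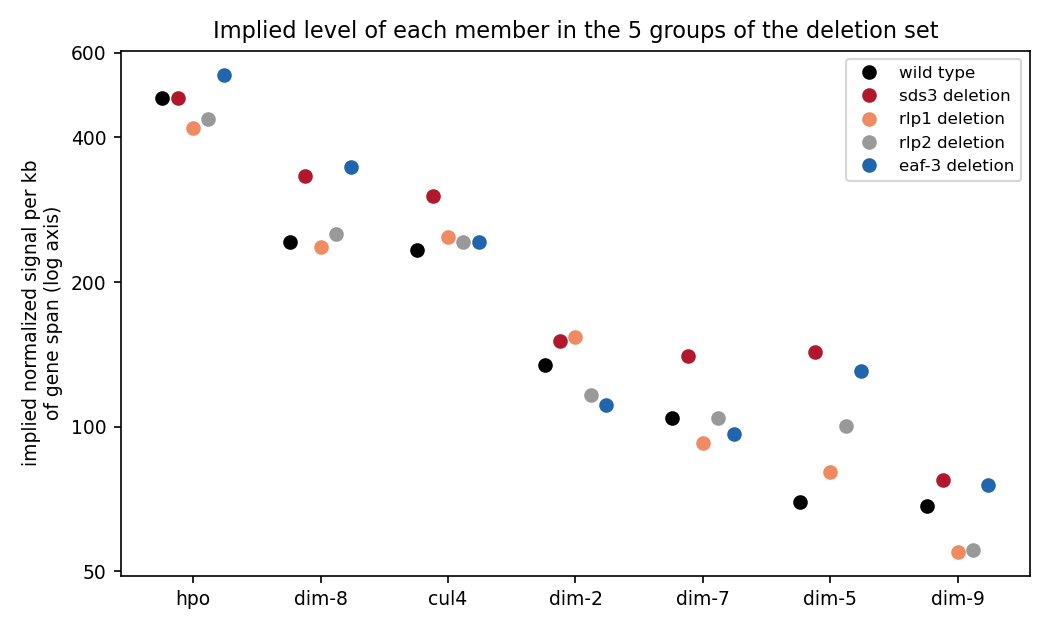
Implied normalized signal per kb of gene span (log axis) of each member in wild type (black) and the 4 deletion groups (colours), with members ordered by their wild type level. The values of hpo lie between 419 and 540 and those of dim-9 between 54.9 and 77.4, while dim-5 spreads from 69.8 to 143; each point is a group level with no error bar because no value per library was given.

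Whether a member responded differently in 2 comparisons was tested directly, for 10 pairs of comparisons and 70 differences in all, each adjusted over all genes with both values. With the errors of a pair taken as independent, none of the 70 passed at an adjusted p under 0.05. For the 42 differences between deletions, which share wild type libraries, this takes the error as too large. With the shared control allowed for, 1 of them passed, as given below. The background was 10.2%, 7.43% and 20.3% of all genes for rlp1, rlp2 and eaf-3 minus sds3, 0.990% for rlp2 minus rlp1, 12.99% for eaf-3 minus rlp1 and 9.41% for eaf-3 minus rlp2. For TSA minus sds3, rlp1, rlp2 and eaf-3 it was 11.01%, 5.90%, 4.64% and 12.2%. With these independent errors 1 of the 70 differences had an unadjusted p under 0.05, and the share of all genes at that threshold was not computed. This difference was dim-5 for TSA minus sds3, at -1.11 ± 0.52 (95% interval -2.13 to -0.10, unadjusted p = 0.0318, adjusted p = 0.156). The call of dim-5 in sds3 is therefore not shown to be particular to that deletion. With independent errors sds3 exceeded eaf-3 by too little to be told apart (eaf-3 minus sds3, -0.13 ± 0.57, interval -1.25 to 0.99). For dim-5, rlp1 minus sds3 was -0.83 ± 0.57 (interval -1.95 to 0.29, adjusted p = 0.426). The narrower errors that allow for the shared control are given below. For dim-8, eaf-3 minus rlp1 was 0.56 ± 0.33 (interval -0.10 to 1.21, adjusted p = 0.32).

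The test of differences took the standard errors of a pair as independent, although the deletions share wild type libraries. With the shared part of the variance removed, 7 of the 42 differences between deletions had an unadjusted p under 0.05. The share of all genes at that threshold was not computed, so whether 7 is many or few cannot be read. Of the 42, 1 passed after adjustment. The difference that passed was dim-7 for rlp1 minus sds3, at -0.60 ± 0.23 (adjusted p = 0.0411, against 0.272 with independent errors), in a pair where 26.4% of all genes then differed. In the other pairs of deletions 22.1% (rlp2 minus sds3), 37.6% (eaf-3 minus sds3), 3.81% (rlp2 minus rlp1), 27.9% (eaf-3 minus rlp1) and 22.7% (eaf-3 minus rlp2) of all genes differed, and no member did. The values behind it are the -0.17 for rlp1 and 0.43 for sds3 given above, neither of which differed from wild type by its own test. With the shared part removed, dim-5 for rlp1 minus sds3 was at -0.83 ± 0.41 (unadjusted p = 0.0414). Its adjusted p of 0.121 was the lowest of dim-5 between deletions. For dim-8, eaf-3 minus rlp1 was then at 0.56 ± 0.24 (unadjusted p = 0.0189, adjusted p = 0.0635).

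The other genes of the pathway were read from lists matched by symbol, and 16 of 23 listed symbols were found. The 3 genes of the CAF-1 histone chaperone, which places histones on newly made DNA, all rose in the sds3 deletion, where 18.96% of all tested genes were higher, and none passed in any other table, though differences between tables were not tested for the partner genes. In the authors' deposited table for sds3, cac-1 rose by 0.60 ± 0.25 (adjusted p = 0.0476), cac-2 by 0.55 ± 0.16 (adjusted p = 0.00454) and cac-3 by 0.77 ± 0.24 (adjusted p = 0.00685). After centring of the fold changes on the median of all genes the adjusted p of cac-1 was 0.0823. Among 5 matched genes of the HCHC complex and of heterochromatin spreading, the chromodomain protein gene cdp-2 fell by 0.55 ± 0.21 in the sds3 table (adjusted p = 0.0299) and fell by 0.62 ± 0.21 in the rlp1 table (adjusted p = 0.0166), in the authors' deposited table. The deacetylase gene hda-1 rose by 0.68 ± 0.16 for rlp1 (adjusted p = 0.000321) and by 0.94 ± 0.29 under TSA (adjusted p = 0.0189) in the authors' deposited table. The genes chap, dmm-1 and dmm-2, the last 2 known for keeping heterochromatin from spreading into genes, did not pass in any table.

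Of 8 matched genes of the cullin machinery, which include the COP9 signalosome that removes the NEDD8 modifier from cullins, csn-1 rose for rlp1 by 0.56 ± 0.15 (adjusted p = 0.00137) and for eaf-3 by 0.66 ± 0.15 (adjusted p = 9.3e-05) in the authors' deposited table. The signalosome gene csn-7 fell by 0.50 ± 0.18 for eaf-3 (adjusted p = 0.0217), and the other 6 genes passed in no table. Over all 16 partners, 3 rose and 1 fell for sds3 (median 0.16), 2 rose and 1 fell for rlp1 (median -0.09), none passed for rlp2 (median -0.02), 1 rose and 1 fell for eaf-3 (median 0.07), and 1 rose for TSA (median -0.02). Of all genes 14.6% were higher and 8.61% lower for rlp1, 20.2% and 11.5% for eaf-3, and 5.15% were higher for TSA. For rlp2 11.01% of all tested genes were called. There none of the 16 had an unadjusted p under 0.05 in the authors' deposited table, beside 20.6% of all genes. None of these partner values met the authors' own category.

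**Figure D5:**
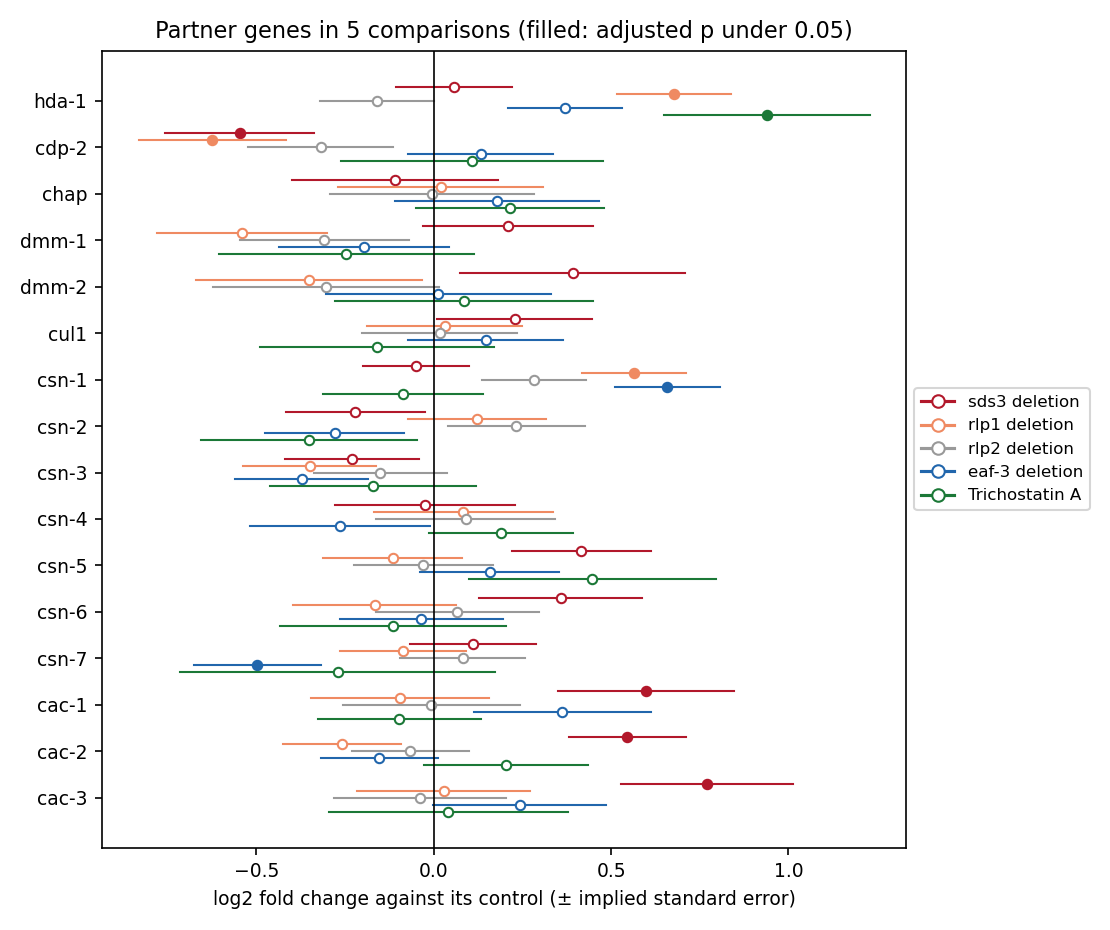
Log2 fold change of the 16 matched partner genes (rows) in the 5 comparisons (colours), with the implied standard error as a horizontal line and filled points where the deposited adjusted p was under 0.05. The filled points are the 3 cac genes and cdp-2 for sds3, hda-1, csn-1 and cdp-2 for rlp1, csn-1 and csn-7 for eaf-3, and hda-1 for TSA.

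The members sit on linkage groups II to VII in the reference annotation, with dim-5 and dim-8 both on IV. Their 14 directly neighbouring genes were read as well, and 4 passed for sds3, 2 for rlp1, 6 for eaf-3 and none for rlp2 or TSA, beside 34.6%, 23.2%, 31.7%, 11.01% and 8.77% of all tested genes in the same order of tables (sds3, rlp1, eaf-3, rlp2, TSA). At an unadjusted p under 0.05 the counts were 4 for sds3, 7 for rlp1, 6 for eaf-3, 4 for rlp2 and 1 for TSA. Of all genes 40.7%, 33.3%, 39.6%, 20.6% and 18.6% had such a p, in the same order. The gene NCU00271 beside cul4, with a mean of 0.277, had no adjusted p for any deletion and so could not be called. For TSA it has no value. Neither neighbour of dim-5 passed for sds3. NCU16819 was at -0.78 ± 0.71 and NCU10110 at -0.44 ± 0.45, with means of 53.7 and 61.8, so the direction of neither is settled. In the eaf-3 table NCU10110 rose by 1.04 ± 0.43 (adjusted p = 0.0461 in the authors' deposited table). Beside dim-2, which did not pass, NCU02246 fell by 1.06 ± 0.32 for sds3, fell by 1.01 ± 0.32 for rlp1 and fell by 1.94 ± 0.32 for eaf-3 in the authors' deposited table. Beside dim-8, NCU06604, a low gene with a mean of 20.1, rose by 3.74 ± 0.75 for eaf-3 and fes-1 fell by 1.29 ± 0.36 in the authors' deposited table. Beside dim-9, NCU01657 rose by 1.17 ± 0.28 for sds3 (adjusted p = 0.000188) and fell by 0.70 ± 0.28 for eaf-3 (adjusted p = 0.0401). The other called neighbours were NCU02248 beside dim-2 (-0.52 for sds3, -0.55 for rlp1), NCU04018 beside hpo (-0.76 for sds3) and NCU04153 beside dim-7 (-0.97 for eaf-3).

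Among 8345 other genes whose deposited mean was 10 or more, the fold changes most like those of dim-5 over the 5 comparisons were those of NCU06113, NCU01961 and NCU05632, at Euclidean distances of 0.16, 0.22 and 0.28 on the log2 scale, where the median gene lay at 2.00. The nearest other member was dim-8, at 0.97. That is the nearest of 6 and cannot be set against the nearest of 8345, which is small by its number of candidates. The deposited values of NCU06113 were 1.06 for sds3, 0.10 for rlp1, 0.57 for rlp2, 0.92 for eaf-3 and -0.19 for TSA, and it passed the test in 2 tables. NCU05632 passed in 2 and NCU01961 in 0. The likeness rests on 5 fold changes, 4 of which share a control, and is given as a description.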

How the data were processed

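RNA-seq of 14 libraries in 7 groups was used through 5 tables of the authors' own comparisons. The tools named, per the submitters' processing notes, are DESeq2 1.24.0, RSEM 1.3.1 and STAR 2.7.3a. What each was used for, the genome build and the counting's strand setting are details not given in the sources used here. For each gene the authors deposited, per the file headers, an average (a normalized expression signal over libraries, not stated which), a log2 fold change, a p-value with its FDR, and a category score. The deposited mean signal was the same in the 4 deletion tables. Columns with values of single libraries numbered 0, so depth is unknown and no new test of counts was possible; p-values measure the spread between these samples as the authors fitted it.

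The standard error is the size of the log2 fold change over the normal quantile of the deposited p-value. Differences between comparisons used both standard errors, a normal two-sided p and Benjamini-Hochberg adjustment over all genes (Python 3.11.15, scipy 1.17.1). For the shared control the smaller squared standard error of a pair was subtracted from the sum. This takes wild type and deletion libraries as carrying equal parts of the variance. The steps were run on simulated data with known standard errors and this same assumption, so the run tests neither the implied standard errors nor the assumption. Symbols came from the RefSeq table of assembly NC12, ignoring hyphens and case. All 7 members were named, then called partner genes (up to 4 a comparison), direct neighbours, and the 3 genes nearest to any called member. Members and lists were chosen with earlier results of these data known. Alternatives changed the threshold, centring, filter on low values and treatment of the shared control.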

Additional observations from a re-analysis of the deposited data

How the results depend on the processing

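The 20 counts were recomputed with 1 choice changed at a time, which gave 86 alternative counts, and 76 of these stayed within 1.5 times. A count of 0 that stayed 0 is included in the 76. The main count was 0 for the members in the rlp1, rlp2, eaf-3 and TSA tables, for the rlp2 partners and for all member differences. Stricter thresholds could not have raised these, so the 76 says little about stability. With an adjusted p under 0.01 the member count for sds3 went from 1 to 0, and the partner counts went to 2 for sds3, 1 for eaf-3 and 0 for TSA. By the authors' own category the member count for sds3 was 0 and the partner counts were 0 for sds3, rlp1, eaf-3 and TSA. With the shared wild type control taken into account, the count of members differing for rlp1 minus sds3 went from 0 to 1 (dim-7). The adjusted p of dim-5 for sds3 ran from 0.0303 to 0.0476 over the alternatives that recompute it, the highest being after centring on the median of all genes, and its log2 fold change was 0.97 to 1.04. Centring, which moves TSA values by 0.10, turned the sign of 8 values that had not passed and did not pass after it: cul4 for eaf-3 (-0.022), dim-5 for TSA (0.023), and the differences of dim-7 for eaf-3 minus rlp1 (-0.019), cul4 for eaf-3 minus rlp2 (-0.079), dim-8 for TSA minus sds3 (0.060), hpo for TSA minus rlp2 (0.065), dim-7 for TSA minus eaf-3 (0.173) and dim-8 for TSA minus eaf-3 (0.011). Leaving out each replicate was not run, because no values per library were given. No paired analysis was possible because the tables hold no values per library.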
